A study of Rattus norvegicus with 72 samples.

Results

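The comparison described here sets hypothalamus RNA of rat pups carrying a UBE3A deletion against that of their litter-matched wild-type (WT) controls, in libraries labelled paternal and taken on postnatal day 9 (P9). It holds 6 of the 72 libraries of the series. WT libraries are JL218, JL219 and JL220 (WT replicates 1, 2 and 3), and deletion libraries are JL221, JL222 and JL223 (deletion replicates 1, 2 and 3), chosen by their labels for tissue, parent of origin, age and genotype. All pups of the series were female. Members of both groups come from litters in which, by the label, the deletion was inherited from the father, and only the deletion pups carry it. The labels name no strain, no breakpoints of the deletion and no litter for a given library, and replicate numbers only name samples, in accession order. Nothing says that libraries of a group come from separate litters, so the p-values speak only of the spread among these samples, part of which may be technical.

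Ube3a encodes an E3 ubiquitin ligase, an enzyme that tags proteins for breakdown or relocation. In neurons the maternal allele is the main source of its transcript, because a long antisense RNA made from the paternal chromosome silences the paternal copy. In glia and most other cells both copies are used. Loss of the maternal copy causes Angelman syndrome in people, and the hypothalamus, which governs feeding, sleep, stress and hormone release, is rich in neurons in which this imprinting operates.

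RNA was measured as counts per RefSeq accession, in 24 hypothalamus libraries (8 groups of 3). The 184444 accessions counted belong to other species than rat: none of the rat accessions of a RefSeq table (assembly GRCr8, 114725 accessions) was among them, so 0 matched. NM_173010 is the mouse RefSeq accession of Ube3a by the definition of this comparison. The files pair no accession with a gene name, so every other accession stands without a name, and neither cell type markers nor pathway lists could be read from them. The tissue label was therefore not checked against hypothalamic markers. Totals of the 6 libraries ran from 437650 counts (JL222) to 1165651 (JL218), the deepest of the tissue.

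The Ube3a accession NM_173010 was lower in the deletion libraries. NM_173010 had 56 counts in JL218, 55 in JL219 and 28 in JL220, and 7 in JL221, 1 in JL222 and 6 in JL223. In CPM, the usual scaling of counts to a common library size (here after TMM adjustment), the WT libraries stood at 48.6, 52.8 and 37.0 CPM of NM_173010 and the deletion libraries at 7.09, 2.61 and 6.78 CPM. The groups did not overlap, and the highest deletion library lay far below the lowest WT library. Counting error alone gives exact 95% Poisson intervals for NM_173010 of 24.6 to 53.4 CPM in JL220, the lowest WT library, and of 2.85 to 14.6 CPM in JL221, the highest deletion library, so these intervals did not meet either. The interval of JL222, with a single count, ran from 0.0661 to 14.6 CPM.

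NM_173010 averaged 46.2 ± 8.22 CPM over the WT libraries (SD, n = 3) and 5.49 ± 2.50 CPM over those with the deletion (SD, n = 3), so that 11.9% of the WT level was left. With counts summed over each group (139 in WT and 14 in deletion), the remainder was 13.2% of WT, with an exact 95% interval of 7.02% to 22.9% that covers counting error only. NM_173010 had a deletion over WT log2 fold change of -2.89 (SE 0.399, 95% interval -3.70 to -2.07), a 7.41-fold lower level, and the adjusted p was 0.000394 (quasi-likelihood F-test of edgeR over all 24 libraries, Benjamini-Hochberg). An exact two-sided permutation test on the 6 CPM values gave p = 0.1, the smallest p that 3 against 3 libraries allow. NM_173010 was the only one of 5840 accessions tested to pass the threshold, which makes 0.0171% called. In bulk tissue, fewer cells of a type and less RNA per cell cannot be told apart.

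**Figure D1:**
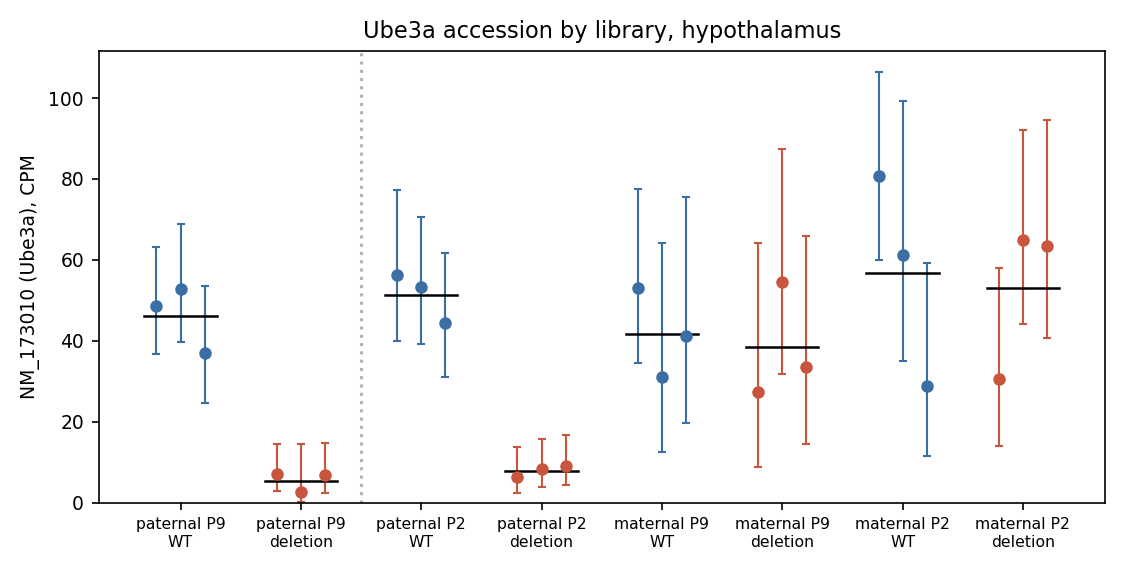
Level of the Ube3a accession NM_173010 in CPM (y axis) in each of the 24 hypothalamus libraries (points, with exact 95% Poisson intervals as bars) by group (x axis, named after the parental label, age and genotype), with group means as black lines. The P9 libraries labelled paternal stand left of the dotted line, with WT (blue) at 37.0 to 52.8 CPM and deletion (red) at 2.61 to 7.09 CPM.

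That depth of loss goes against the parental label, given the imprinting described above, in which a deletion on the father's chromosome leaves the active maternal copy in place. In the libraries labelled maternal at P9, NM_173010 stood at 53.0, 31.1 and 41.1 CPM in WT and at 27.5, 54.6 and 33.5 CPM with the deletion, groups that overlapped. These levels rest on 26, 7 and 10 counts in WT and on 5, 17 and 8 with the deletion. Library totals there ran from 218288 to 531265 counts, against 437650 to 1165651 in those labelled paternal at P9. The most abundant accession took 15.3% to 19.4% of counts there, against 5.26% to 11.4%. Libraries of the 2 labels thus differed in depth and composition too. In the libraries labelled maternal at P9, the log2 fold change for NM_173010 was -0.11 (SE 0.395, 95% interval -0.92 to 0.70). For this reason the groups are called "labelled paternal" and "labelled maternal" throughout. The label was not changed, and an exchange of parental labels was not tested. The genotype labels, by contrast, were matched by NM_173010 in each of the 6 libraries of the comparison.

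The difference between the 2 deletion effects at P9, labelled paternal minus labelled maternal, was -2.77 for NM_173010 on the log2 scale (SE 0.572, 95% interval -3.95 to -1.60). It had the lowest p of all accessions (4.2e-05) but did not pass the threshold, with an adjusted p of 0.148 (edgeR, Benjamini-Hochberg). That contrast called 0 of 5840 accessions (0% called), with 115 (1.97%) below 0.05 before adjustment, and DESeq2 called 0. Between the ages, the log2 effect on NM_173010 differed by -0.23 (P9 less P2, 95% interval -1.36 to 0.91), an interval that holds more than a 2-fold difference at its lower end. At P2, NM_173010 stood at 56.3, 53.2 and 44.5 CPM in the WT libraries labelled paternal and at 6.33, 8.26 and 9.07 CPM in those with the deletion. For the contrast of ages, edgeR called 0 accessions (0% called, with 90 or 1.54% below 0.05 before adjustment), and DESeq2 called 0 too.

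Beyond the Ube3a accession, differences between the genotypes were small against the spread of the libraries. The median absolute log2 fold change was 0.15, and the median SE was 0.33. Of 5840 accessions, 36 differed by more than 2-fold. For 63.2% of accessions the 95% interval, not adjusted for the number of tests, lay wholly within 2-fold of no change. At unadjusted p under 0.05 there were 50 accessions (0.856%), 22 higher and 28 lower, against 292 for evenly spread p-values. Small p-values were thus fewer than an even spread gives, and after NM_173010 the lowest adjusted p was 0.9999 (edgeR, Benjamini-Hochberg). The CPM values of the 3 deletion and 3 WT libraries did not overlap for 251 accessions (4.3%), of which 129 (2.21%) were higher and 122 (2.09%) lower with the deletion. Of the 20 ways to split 6 libraries into 3 and 3, a share of 0.1 separates their values fully. The 4.3% seen is below that share.

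**Figure D2:**
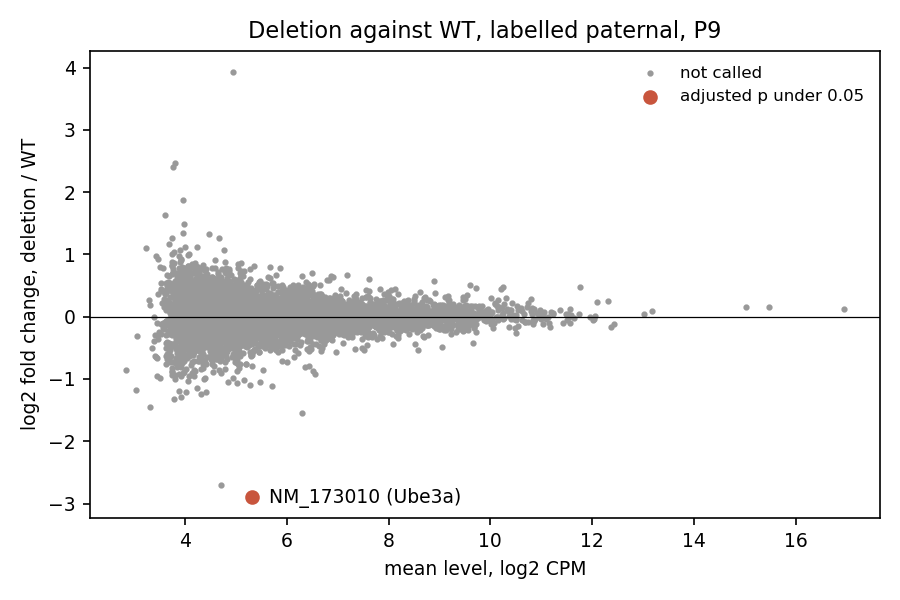
Log2 fold change of deletion over WT (y axis) against mean log2 CPM (x axis) for the 5840 accessions tested at P9 in libraries labelled paternal. NM_173010, in red at -2.89, is the accession called, and the grey points spread more widely at low levels.

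The library JL218 stood apart from the other WT libraries. Across the 5840 accessions, the log2 CPM of JL218 differed from the mean of JL219 and JL220 with an SD of 0.66, while JL219 and JL220, each set against the rest of the group in the same way, had SDs of 0.49 and 0.44. JL218 took 50.1% of the summed squared deviations of the WT libraries from their means, where equal libraries would take 33.3% each, against 27.9% for JL219 and 21.9% for JL220. In the other 7 hypothalamus groups the most deviating library took 35.0% to 45.6%. JL218 was the WT library furthest from the middle value for 52.0% of accessions, and it lay over 2-fold from both other WT libraries for 439 accessions (245 higher and 194 lower), against 87 for JL219 and 53 for JL220. With all counts, some libraries of lower totals in other groups lay further out than JL218. JL202 (WT, labelled maternal, P2) had an SD of 0.79 from the rest of its group and 575 such accessions.

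JL218 has the most counts of the 24 libraries, and it stood apart at equal depth too. With all libraries thinned at random to the lowest total of the tissue, 218288 counts, the SD of JL218 from the rest of its group was 0.70, the highest of the 24, with 0.59 for JL219 and 0.56 for JL220. The contrast within the group was smaller at equal depth: JL218 lay over 2-fold from both other WT libraries for 496 accessions, against 223 for JL219 and 190 for JL220. Its share of the squared deviations of the WT libraries was then 42.6%, close to the highest share in another group, 40.4%. In limma's sample quality weights, where 1 is an average library, JL218 had 0.297, the lowest of the 24, while JL220 had 2.29, the highest. Among the deletion libraries, JL222 deviated most, with an SD of 0.70 and 44.7% of the squared deviations of its group, then JL223 (0.61 and 34.6%) and JL221 (0.47 and 20.7%). JL222 also has the fewest counts of the 6 libraries. Over both groups together, JL222 held 24.8% of the squared deviations and JL218 22.4%, but thinned to equal totals JL222 had an SD of 0.68, below that of JL218, and 38.4% of the squared deviations of its group.

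**Figure D3:**
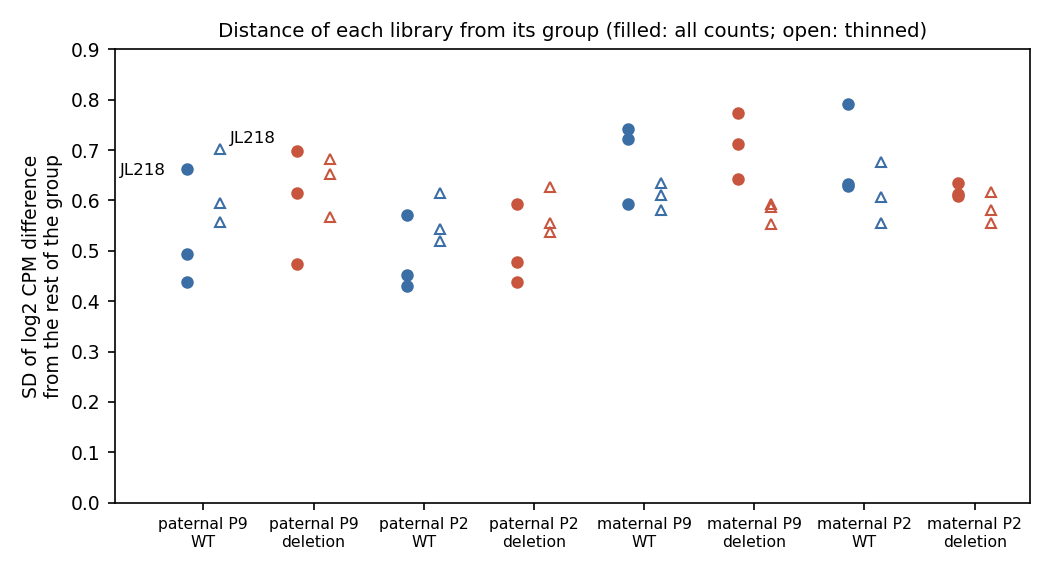
SD, over 5840 accessions, of the log2 CPM difference between each library and the mean of the others of its group (y axis), for the 8 hypothalamus groups (x axis; WT blue, deletion red), with all counts (filled circles) and thinned to 218288 counts (open triangles). JL218 lies above the other WT libraries of its group on both scales, at 0.66 and 0.70.

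JL218 resembled the deletion libraries JL221 and JL222 more than the WT libraries of its own group. Across accessions, Spearman's rho of log2 CPM was 0.941 between JL218 and JL221 and 0.930 between JL218 and JL222, but 0.886 between JL218 and JL219 and 0.898 between JL218 and JL220. In the opposite way, the deletion library JL223 had 0.961 with JL219 and 0.953 with JL220, both WT, but 0.925 with JL221 and 0.868 with JL222 of its own genotype. The pair most alike of the 15 pairs was JL219 and JL223, a WT and a deletion library. JL221 and JL222, both deletion, had 0.904 with each other, below the 0.929 and 0.928 of JL221 with JL219 and JL220, both WT. The likeness of these pairs thus crossed the genotype. Thinned to equal totals, JL218 still had higher rho with JL221 (0.873) and JL222 (0.880) than with JL219 (0.834) and JL220 (0.843). These are descriptions across accessions, which are not independent and share each library's depth and scaling.

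**Figure D4:**
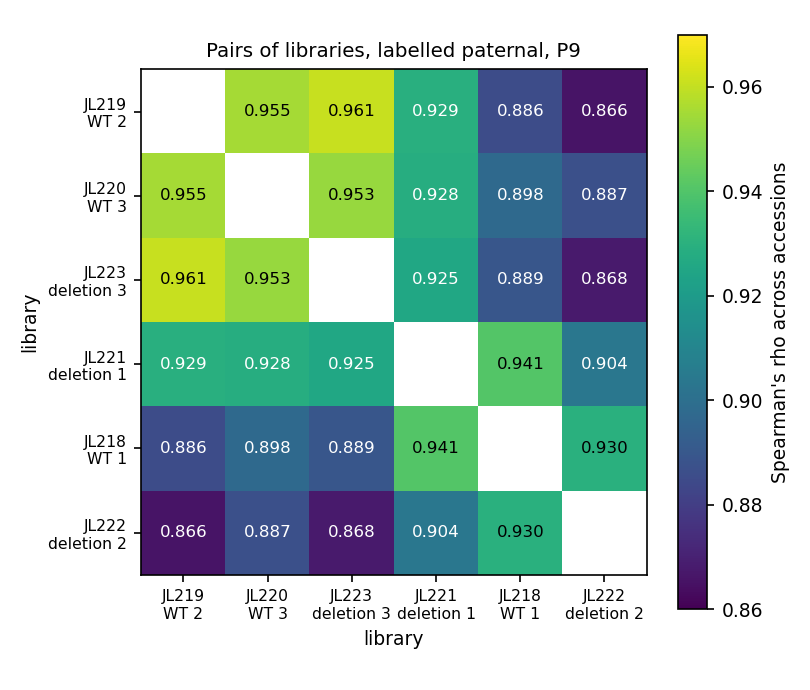
Spearman's rho of log2 CPM over 5840 accessions for each pair of the 6 libraries (both axes, library and label). JL219, JL220 and JL223 are alike at 0.953 to 0.961, across genotypes, while JL218 is closest to JL221 and JL222, at 0.941 and 0.930.

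The accessions in which JL218 deviated show the same crossing. Of the 439 accessions over 2-fold from both other WT libraries in JL218, JL222 lay nearer to JL218 than to the mean of JL219 and JL220 in 66.5% and JL221 in 53.1%, but JL223 in only 9.57%. For the 87 accessions that set JL219 apart, the shares were 20.7% for JL222, 12.6% for JL221 and 50.6% for JL223, and for the 53 that set JL220 apart they were 32.1%, 18.9% and 45.3%.

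Values of the accessions furthest out in JL218 make this concrete. NM_010020 stood at 478 CPM in JL218, 36.5 in JL219 and 11.9 in JL220, and at 122 in JL221, 41.8 in JL222 and 12.4 in JL223. NM_009377 stood at 130 CPM in JL218, 0.961 (a single count) in JL219 and 11.9 in JL220, and at 30.4, 28.7 and 20.3 CPM in JL221, JL222 and JL223. For both accessions JL218 was the highest of all 6 libraries, and the deletion libraries overlapped the range of the WT libraries. Furthest below were NM_001163262, at 2.61 CPM (3 counts) in JL218 against 27.9 in JL219 and 40.9 in JL220, and NM_001164374, at 16.5 CPM against 97.0 and 131. NM_001163262 was low in JL222 too, at 2.61 CPM (a single count), but stood at 23.3 in JL221 and 21.5 in JL223. NM_001164374 stood at 44.6, 67.9 and 115 CPM in JL221, JL222 and JL223. None of these 4 accessions passed the threshold for deletion, and their log2 fold changes of -1.55 (SE 1.45) for NM_010020, -0.90 (SE 1.15) for NM_009377, -0.35 (SE 0.622) for NM_001163262 and -0.07 (SE 0.696) for NM_001164374 were no larger than about their SE.

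Leaving JL218 out changed how many accessions had an unadjusted p under 0.05, not how many passed the threshold after adjustment. Without JL218, 1 accession was called of 5964 tested, again NM_173010, at a log2 fold change of -2.85 (SE 0.432) and an adjusted p of 0.00177 (edgeR, Benjamini-Hochberg). At unadjusted p under 0.05 there were now 288 (183 higher and 105 lower) in place of 50, near the 298 of an even spread. Without JL223 there were 174 (70 higher and 104 lower). Without JL219, JL220, JL221 or JL222 there were 69, 46, 64 and 66. The low count with all libraries present thus depended on JL218 and, less, on JL223. The number of accessions over 2-fold apart was 214 without JL218 and 187 without JL223, against 87 to 100 without one of the others.

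**Figure D5:**
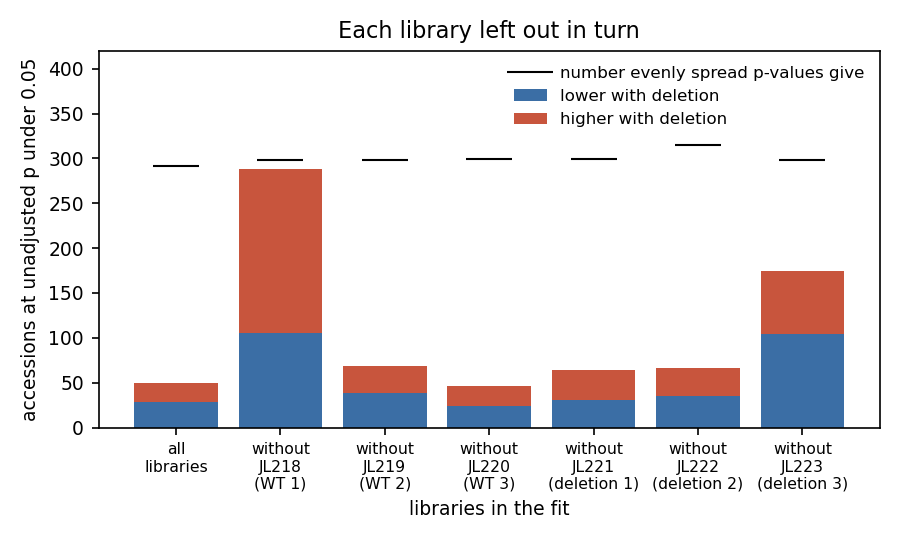
Accessions at unadjusted p under 0.05 (y axis, lower with deletion in blue and higher in red) with all libraries and with each of the 6 libraries left out (x axis), with the number that evenly spread p-values give as black dashes. The bars reach 288 without JL218 and 174 without JL223, and 46 to 69 without one of the others.

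The left-out library can be set beside these added accessions, though this is not independent of the rise in their number. Of the 288 found without JL218, 282 were also tested with all libraries, and JL218 itself lay nearer to the mean of the deletion libraries than to that of JL219 and JL220 in 252 of them (89.4%). Of the 174 found without JL223, 168 were tested with all libraries, and JL223 lay nearer to the WT mean in 151 (89.9%). When JL219, JL220, JL221 or JL222 was left out, the share nearer to the other genotype was 67.2%, 53.3%, 75.0% and 69.5%, of 45 to 64 accessions. The differences that appear without JL218 were mostly not shared by JL218, a WT library. This largely restates the rise from 50 to 288. Accessions that lose a small p once a library is added tend to be those where that library deviates. The shares therefore add no separate evidence. NM_173010 was different: JL218 was not used to find it in that fit, and at 48.6 CPM JL218 lay with the other WT libraries.

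JL218 also added to the estimate of the spread. In edgeR fits of the 6 libraries alone, the common biological coefficient of variation was 26.0% with all 6, 21.6% without JL218, and 25.4% to 29.2% without one of the others. In the fit of all 24 libraries it moved from 22.3% to 20.6% without JL218. For NM_173010, leaving out each of the 6 libraries in turn gave log2 fold changes of -3.06 to -2.71 and adjusted p of 0.00057 to 0.00963 (edgeR, Benjamini-Hochberg). The call therefore did not rest on any single one of the 6 libraries. It did rest on the other groups of the tissue: with only the 6 libraries in the fit, NM_173010 had a log2 fold change of -2.90 and an adjusted p of 0.147 (edgeR, Benjamini-Hochberg).

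A second accession, NM_001132452, came closest to NM_173010. It stood at 29.5, 111 and 73.9 CPM in the WT libraries JL218, JL219 and JL220 and at 13.2, 5.23 and 11.3 CPM in the deletion libraries JL221, JL222 and JL223. The groups did not overlap, and JL218 was the lowest WT library. The log2 fold change of NM_001132452 was -2.71 (SE 0.645, unadjusted p = 0.000381), with an adjusted p of 0.9999 with all libraries and 0.111 without JL218, where it was -3.09, (edgeR, Benjamini-Hochberg). With no filter on low counts NM_001132452 passed the threshold (adjusted p = 3.45e-07 in the same test). At P2, libraries labelled paternal had 7.41, 21.1 and 61.9 CPM of NM_001132452 in WT and 8.44, 4.59 and 17.2 CPM in deletion, groups that overlapped. In libraries labelled maternal at P9, NM_001132452 stood at 6.11, 0 and 8.22 CPM in WT (3, 0 and 2 counts). With the deletion it stood there at 0, 6.42 and 8.36 CPM. Those labelled maternal at P2 had 17.7, 11.5 and 0 CPM in WT and 6.79, 6.28 and 15.9 CPM with the deletion. The deletion levels labelled paternal at P9 thus lay within the range of the WT libraries labelled maternal at P2, which rests on 11, 3 and 0 counts. Those of JL221 and JL223 lay above the WT libraries labelled maternal at P9.

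The other accessions singled out without JL218 were far smaller changes. NM_053199 stood at 252, 124 and 120 CPM in JL218, JL219 and JL220 and at 259, 384 and 131 CPM in JL221, JL222 and JL223. NM_144552 stood at 165, 93.2 and 89.8 CPM in WT and at 257, 144 and 136 CPM in deletion libraries, and NM_001026212 at 109, 250 and 252 CPM in WT and 138, 88.8 and 188 CPM in deletion libraries. In all 3, JL218 lay on the deletion side of the other WT libraries, and the groups overlapped once it was counted. Lack of overlap among the kept libraries was part of how they were chosen. Without JL218 it held for 1104 of 5840 accessions (18.9%), so it does not set these 3 apart. The log2 fold changes of these 3 accessions without JL218 were 1.04 (NM_053199), 0.98 (NM_144552) and -0.83 (NM_001026212), each with an adjusted p of 0.985 (edgeR, Benjamini-Hochberg). With JL218 they were 0.60, 0.63 and -0.52.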

How the data were processed

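Per the labels' protocols, rRNA was depleted from hypothalamus RNA and a strand-marking kit was used. Per the submitters' processing notes, the tools and builds include STAR, rn6 and Rnor_6.0. Which program counted the reads, on which annotation and strand setting, and how reads fitting several accessions were handled is not given in the sources used here. Values are deposited in a single table of raw whole-number counts per RefSeq accession (168377 NM_ and 16067 NR_), with 0 columns left unmapped. Several accessions can stand for the same gene, so a number of accessions is no number of genes.

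In R 4.3.3, all 24 libraries were fitted in edgeR 4.0.16 (TMM scaling, filterByExpr, 1 mean per group, robust quasi-likelihood F-test, two-sided), with calls at 0.05 after Benjamini-Hochberg adjustment. The filter kept 5840 accessions. Log2 CPM used a prior count of 2. The test was checked on simulated data. Alternatives used DESeq2 1.42.0, limma 3.58.1 and sva 3.50.0. Thinning drew each count binomially. No pair of the 6 libraries agreed within sampling noise (chi-square per degree of freedom at least 1.97). The comparison, lists and tests were chosen with earlier results of these data known. Named accessions are NM_173010, those called, the 2 of lowest p in each direction without JL218 with no overlap of the kept libraries, and the 2 furthest above and below in JL218. The 15 gene lists (242 symbols) gave no value, since 0 accessions matched. Cortex and methylation files were not used here.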

Additional observations from a re-analysis of the deposited data

How the results depend on the processing

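NM_173010 was lower with the deletion under all 18 alternatives, at -3.09 to -2.59 on the log2 scale, and passed the threshold in 16. It missed it with all libraries thinned to 218288 counts (-3.09, adjusted p = 0.171) and with only the 6 libraries in the fit (-2.90), both in edgeR with Benjamini-Hochberg adjustment, and 0 accessions were called in both fits. With no filter on low counts 2 were called, NM_173010 and NM_001132452. With a library left out the count was 1 in each of 6 fits. The contrast of ages gave 0 calls under all 22 alternatives. The contrast of parental labels gave 0 except for 1 call with no filter and a range of 0 to 1 with a library left out. Giving deviating libraries less weight (limma voom with sample quality weights) called 1 accession, with 594 of 5840 at unadjusted p under 0.05 in place of 50. In that fit small p-values were thus more than the 292 of an even spread, unlike in the main fit. The lowest adjusted p after NM_173010 was 0.0773 (limma, Benjamini-Hochberg). Leaving out JL218 and JL222 together, or adding 1 surrogate variable, both chosen after seeing the data, also called 1. The share of JL218 in the WT spread was 46.2% to 50.2% under 5 other settings, and fell to 42.6% with libraries thinned over the same 5840 accessions. No paired analysis was possible because the labels name no litter for a given library, and replicate numbers only name samples. Any likeness of WT and deletion pups of the same litter was therefore not modelled. Depth limits all of this: a level of NM_173010 in a deletion library rests on 1 to 7 counts.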

Other observations

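The single call in the contrast of parental labels, with no filter and without JL223, was NM_001309242, named after its values were seen. In libraries labelled paternal at P9 it stood at 79.1, 64.4 and 79.2 CPM in WT and at 96.2, 138 and 62.1 CPM in deletion libraries, which overlapped. In those labelled maternal at P9, NM_001309242 stood at 120, 151 and 103 CPM in WT and at 33.0, 25.7 and 29.3 CPM in deletion libraries, with no overlap. The difference of the effects, paternal minus maternal, was 2.47 on the log2 scale for NM_001309242 (SE 0.515), with an adjusted p of 0.148 with all libraries, 0.0454 without JL223 and 0.00178 with no filter, (edgeR, Benjamini-Hochberg). Its values in libraries labelled paternal rest on 53 to 95 counts and those labelled maternal on 6 to 59.

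The libraries most alike in the comparison, the WT library JL219 and the deletion library JL223, differed by a chi-square of 1.97 per degree of freedom over their counts, the lowest of 15 pairs, yet held 55 and 6 counts of NM_173010. JL218 and JL219, both WT, differed by 10.7 per degree of freedom and held 56 and 55 counts of NM_173010. This chi-square is taken on raw counts, so it grows with depth and leans on abundant accessions. JL218 and JL219 are the deepest libraries of the comparison (1165651 and 1000086 counts), so the values of different pairs compare only roughly.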
